A study of Mus musculus with 6 samples.

Results

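The genes described here are 44 regulators of the mammalian cell cycle, among the 53390 mouse genes for which expression was summed. They were chosen by name, with earlier results of these data known. They comprise the D cyclins with Cdk4 and Cdk6 (5 genes), CDK inhibitors (6), pocket proteins (3), E2F transcription factors (8), the E, A and B cyclins with Cdk1, Cdk2 and Cdc25a (8), replication licensing factors with Pcna (11), and the mitotic kinases Aurka and Plk1 with the proliferation marker Mki67 (3). Poly(A)-selected, strand-specific RNA-seq libraries were prepared from 500 ng of RNA from TKO mouse embryonic stem cells (mESCs), 3 replicates grown in serum (TKO-serum) and 3 in 2i (TKO-2i).

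All 6 libraries came from a male, J1-derived mESC line that lacks functional Dnmt1, Dnmt3a and Dnmt3b (Dnmt1-/-, Dnmt3a-/-, Dnmt3b-/-), so the loss of the DNA methyltransferases is shared by both groups. TKO-serum cells were kept in DMEM with 15% FCS and LIF at 500 U/ml. TKO-2i cells were kept in serum-free N2B27 with LIF at 1000 U/ml and inhibitors of MEK (PD0325901, 1 µM) and of GSK3 (CHIR99021, 3 µM). The comparison asks how the move from serum to 2i altered these genes in cells lacking these methyltransferases. Medium, serum, LIF dose and both inhibitors changed together and cannot be told apart. A single line was used, grown without feeder cells, and libraries of wild-type cells were not analysed here. The replicates are called biological in the labels, and nothing says whether they were separate cultures, so p-values measure the spread between these libraries.

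Total estimated counts were 46228700, 44180642 and 43896549 in TKO-2i replicates 1, 2 and 3, and 38274042, 51932739 and 44827609 in TKO-serum replicates 1, 2 and 3. Levels are given as CPM, the estimated counts scaled by TMM library size, for comparisons of a gene between libraries, and as TPM for comparisons between genes, since TPM is corrected for length. On this CPM scale 3 counts correspond to 0.0564 to 0.0778 CPM, a limit that covers counting error only. Replicate 2 stood apart in both groups. The chi-square per gene was 46.2 and 28.2 for the pairs of TKO-2i that include replicate 2 and 7.25 for the remaining pair, and the corresponding values in TKO-serum were 16.1, 11.1 and 4.71. Counts of changed genes are therefore also given with libraries left out where this moved them most. For counts by role, by promoter letters, of transcripts called in opposite directions and of the wider lists, leaving out libraries and using limma were chosen after seeing the data. The TPM of a gene sums all its transcripts, those without coding sequence included.

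Transcripts of the deleted genes were still detected. Dnmt1 had 150, 154 and 155 CPM in TKO-2i and 129, 130 and 129 CPM in TKO-serum. Dnmt3a had 7.14, 7.46 and 7.36 CPM in TKO-2i and 30.2, 29.4 and 30.7 CPM in TKO-serum. Dnmt3b had 18.99, 20.35 and 20.64 CPM in TKO-2i and 43.12, 42.25 and 43.95 CPM in TKO-serum. The groups did not overlap for any of these genes. All 6 libraries carry the deletions, and the deleted exons are not given in the sources used here, so these levels do not check the genotype.

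The pluripotent stem cell label was checked against 8 markers, whose summed level was 5448, 4692 and 5054 CPM in TKO-2i and 5606, 5162 and 5282 CPM in TKO-serum. Of all 18177 genes tested, 31.9% were called higher and 30.6% lower in TKO-2i (62.5% called), shares with which each marker list compares. Of the 8 pluripotency markers, 2 were higher and 4 lower in TKO-2i, and Dppa5a had the highest mean TPM in both media. The 8 fibroblast markers summed to between 16.6 and 20.6 CPM in every library; Col3a1, Lum and Dcn were at 0 in at least 1 library, and Thy1 had the highest mean TPM in both media. Of the 5 fibroblast markers tested, 1 was higher and 3 were lower. Markers of rarer states moved with the medium. The 6 primitive endoderm markers summed to 9.19, 9.28 and 8.35 CPM in TKO-2i and 26.6, 28.4 and 29.7 CPM in TKO-serum, with 5 of 6 lower. By mean TPM, Gata4, which was not called, led in TKO-2i and Dab2 in TKO-serum. The 5 markers of 2-cell-like cells summed to 3.15, 2.52 and 2.46 CPM in TKO-2i and 45.9, 46.6 and 48.0 CPM in TKO-serum, all 5 lower, Tmem92 highest by mean TPM in both media and Zscan4c and Zfp352 at 0 in at least 1 TKO-2i library. The 6 trophoblast markers summed to 86.4, 73.8 and 78.8 CPM in TKO-2i and 50.0, 47.8 and 46.3 CPM in TKO-serum, with 3 higher, 2 lower and Tfap2c highest by mean TPM in both media. The 7 neural and mesoderm markers, of which Tubb3 had the highest mean TPM in both media, summed to 219.7, 193.7 and 216 CPM in TKO-2i and 252, 232 and 239 CPM in TKO-serum. Of the 6 tested, 2 were higher (T and Nes) and 3 lower. The lower genes were Pax6, Sox1 and Tubb3, with log2 fold changes of -2.46, -1.28 and -0.43. Mixl1 was not called and Mesp1 was not tested. T, chosen after its values were seen, rose from 0.337, 0.263 and 0.261 CPM in TKO-serum to 12.2, 10.2 and 18.9 CPM in TKO-2i. The part of these cells in the results below was not tested. In bulk RNA, fewer cells in a given phase or state and less RNA per cell cannot be told apart.

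The cell cycle is driven by cyclin-dependent kinases (CDKs), which are active when bound to a cyclin and are restrained by inhibitors of the Cip/Kip and Ink4 families. In most somatic cells, D cyclins with Cdk4 or Cdk6 and then cyclin E with Cdk2 phosphorylate the pocket proteins Rb1, Rbl1 and Rbl2, which releases E2F factors to transcribe genes of S phase, including those that load the MCM helicase onto replication origins. Mouse embryonic stem cells are known for a short G1 phase, high cyclin E and Cdk2 activity, and largely phosphorylated pocket proteins.

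All 44 genes passed the filter on low counts. Of these, 29 (65.9%) differed between TKO-2i and TKO-serum at an adjusted p-value under 0.05, against 62.5% of the 18177 genes tested. In TKO-2i, 19 were higher and 10 lower, where 31.9% and 30.6% of all tested genes were called in these directions. The groups did not overlap for 28 of the 44, against 67.5% of all tested genes. These shares lie near the background. At a change of at least 2-fold, 5 of 44 (11.4%) were called, against 23.3% of all tested genes, and the median absolute log2 fold change was 0.26, against 0.44. The median log2 fold change was 0.14, against 0.01 over all tested genes, and was 0 against -0.06 when log2(TPM + 1) was fitted with limma. Without TKO-2i replicate 2, 38 of the 44 were called, 27 of them higher, while the share over all tested genes rose from 62.5% to 67.2%. With any other library left out, 24 to 28 of the 44 were called (27 without TKO-serum replicate 2), against 54.6% to 58.6% of all tested genes.

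Counts by role were as follows, each against all tested genes, of which 62.5% were called and 23.3% called at least 2-fold, with a median absolute log2 fold change of 0.44. Among the 22 D cyclins, D cyclin kinases, inhibitors, pocket proteins and E2F factors, 18 were called (81.8%), 5 of them at least 2-fold (22.7%), and the median absolute log2 fold change was 0.51. Among the 22 remaining genes, which act from cyclin E to mitosis, 11 were called (50%), with log2 fold changes from -0.60 to 0.54, and the median absolute log2 fold change was 0.16. The contrast in calls rested on TKO-2i replicate 2, without which 20 (90.9%) and 18 (81.8%) were called, against 67.2% of all tested genes, while the median absolute log2 fold changes were 0.56 and 0.20. With any other library left out, 16 to 19 and 8 to 9 were called, and with limma on log2(TPM + 1) 18 and 8 were, against 55.3% of all tested genes. The difference between these sets was not tested. Counts of called inhibitors, pocket proteins and E2F factors moved by at most 1 when a library was left out. The 5 genes past 2-fold were Ccnd2 (ENSMUSG00000000184, chr6:127125162-127152193), Cdkn1a (ENSMUSG00000023067, chr17:29090976-29100727), Cdkn2c (ENSMUSG00000028551, chr4:109660876-109667189), Rb1 (ENSMUSG00000022105, chr14:73183673-73325822) and Rbl1 (ENSMUSG00000027641, chr2:157145893-157204534), with coordinates of GRCm38.

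**Figure D1:**
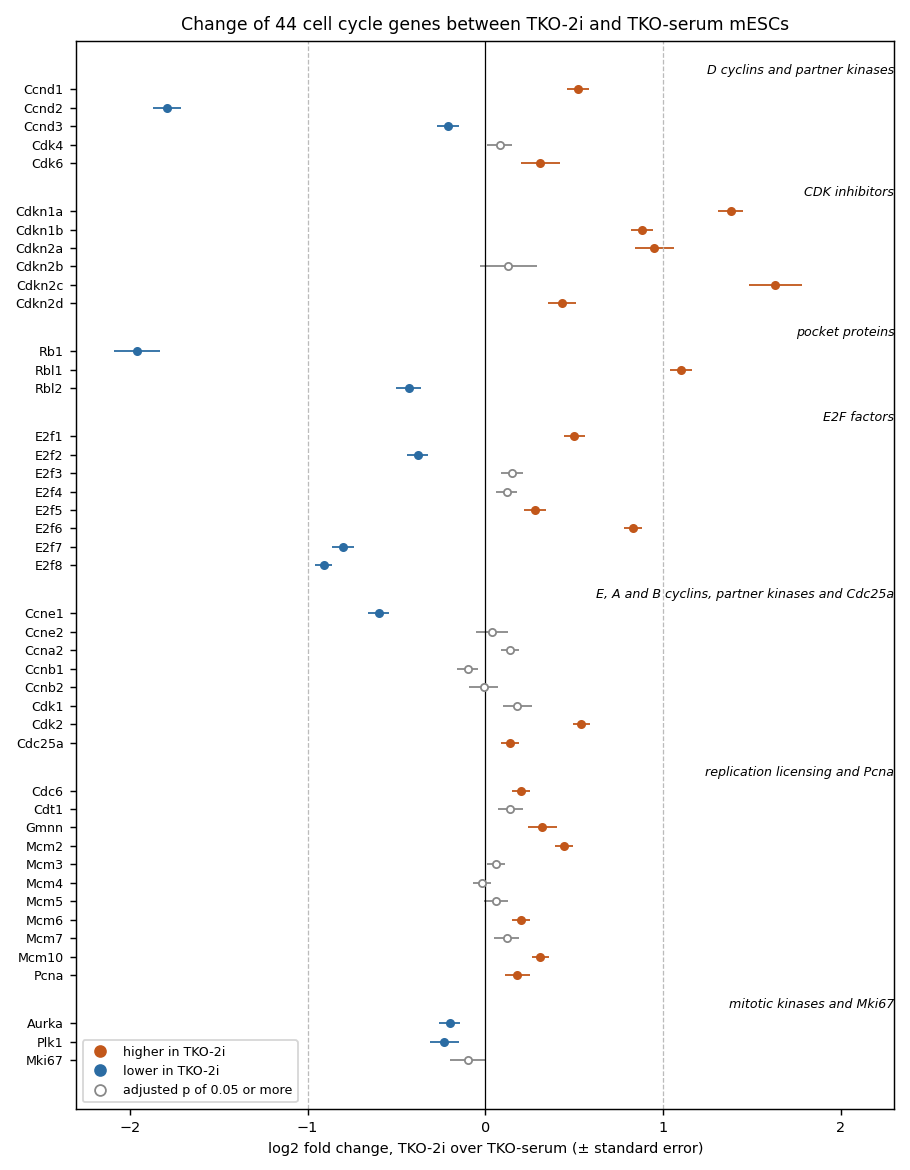
Log2 fold change of each of the 44 genes between TKO-2i and TKO-serum mESCs (x axis, positive where TKO-2i was higher), with its standard error as a bar and genes grouped by role (y axis). Filled points are genes with an adjusted p-value under 0.05, dashed lines mark a 2-fold change, and 5 genes lie beyond them, from Rb1 at -1.96 to Cdkn2c at 1.63.

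The D cyclins, which link growth signals to the cycle, each differed, and not in the same direction. Ccnd1 had 168, 152 and 171 CPM in TKO-2i and 117, 116 and 111 CPM in TKO-serum, so that every TKO-2i library was above every TKO-serum library (log2 fold change 0.52, SE 0.06, edgeR adjusted p = 0.00011). Ccnd2 had 5.71, 5.75 and 6.12 CPM in TKO-2i and 19.8, 21.6 and 19.3 CPM in TKO-serum. It was 3.45-fold lower in TKO-2i, with no overlap between groups (log2 fold change -1.79, SE 0.08, edgeR adjusted p = 3.2e-07). Ccnd3 had 199, 176 and 192 CPM in TKO-2i and 219.6, 211 and 226 CPM in TKO-serum, again without overlap. This fall was smaller (log2 fold change -0.21, SE 0.06, edgeR adjusted p = 0.016). Its adjusted p was 0.057, 0.059 and 0.076 without TKO-2i replicate 3, TKO-serum replicate 1 and TKO-serum replicate 3, so the call was lost. Over all alternatives the adjusted p was 0.0016 to 0.076, while the log2 fold change stayed between -0.29 and -0.16.

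Per length, Ccnd3 was the most abundant D cyclin in both media, at 143 ± 5.28 TPM (SD, n = 3) in TKO-2i and 175 ± 8.24 TPM (SD, n = 3) in TKO-serum. Ccnd1 followed at 61.6 ± 1.28 and 46.6 ± 1.104 TPM, and Ccnd2 at 1.69 ± 0.298 and 7.04 ± 1.15 TPM (SD, n = 3 each). The order was the same in both media. Ccnd2 lies on chromosome 6, whose 866 tested genes had a median log2 fold change of 0.41, so that it fell by 2.20 on the log2 scale relative to its chromosome.

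Cdk4, the kinase partner of the D cyclins, was the most abundant kinase among the 44 genes per length, with 636 ± 25.6 TPM in TKO-2i and 641 ± 5.11 TPM in TKO-serum (SD, n = 3 each), of which coding transcripts made up 254 ± 7.92 and 245 ± 4.67 TPM. Its log2 fold change was 0.08 (edgeR adjusted p = 0.32), and 0.15 (adjusted p = 0.023) without TKO-2i replicate 2, where alternatives ranged from -0.01 to 0.15 (adjusted p 0.023 to 0.83). Cdk6, which shares this role, had 38.1, 50.1 and 47.6 CPM in TKO-2i and 33.2, 38.8 and 37.8 CPM in TKO-serum, with overlap between the groups. Its direction depended on the scale. Counts gave a log2 fold change of 0.31 (SE 0.11, edgeR adjusted p = 0.033), whereas length-scaled counts gave -0.25 (adjusted p = 0.025), and mean TPM was 15.9 in TKO-2i and 20.2 in TKO-serum. On counts, the adjusted p rose to 0.097, 0.11 and 0.067 without TKO-2i replicate 3, TKO-serum replicate 1 and TKO-serum replicate 3, within a range of 0.00046 to 0.11 over all alternatives.

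The transcripts of Cdk6 moved in opposite directions. Cdk6-201 (2470 nt) had 2.93, 2.58 and 1.53 TPM in TKO-2i and 6.50, 6.50 and 6.77 TPM in TKO-serum (log2 fold change -1.44, SE 0.25, edgeR adjusted p = 0.0091 over all transcripts). Cdk6-202 (11525 nt) had 4.33, 6.60 and 5.83 TPM in TKO-2i and 2.93, 4.11 and 3.68 TPM in TKO-serum (log2 fold change 0.67, SE 0.15, adjusted p = 0.021). Both have the same coding length of 978 nt and neither comparison overlapped between groups. The call on Cdk6-202 was lost when its TPM was fitted with limma (adjusted p = 0.075).

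Of the 6 CDK inhibitors among the 44 genes, 5 were higher in TKO-2i, where 31.9% of all tested genes were higher. Among further cell cycle genes examined, the CDK inhibitor Cdkn1c was lower (log2 fold change -3.40). Cdkn1a, which encodes the Cip/Kip protein p21, had 145, 128 and 150.5 CPM in TKO-2i and 54.9, 52.4 and 55.9 CPM in TKO-serum, a 2.60-fold rise without overlap (log2 fold change 1.38, SE 0.07, edgeR adjusted p = 9.9e-07). Cdkn1b, which encodes p27, had 43.1, 41.0 and 39.0 CPM in TKO-2i and 22.0, 22.8 and 22.2 CPM in TKO-serum, also without overlap (log2 fold change 0.88, SE 0.06, edgeR adjusted p = 3.2e-06). Cdkn1b lies on chromosome 6, and its log2 fold change was 0.47 above the median of 0.41 of that chromosome. The part of the chromosome in this result was not tested.

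The Ink4 inhibitors bind Cdk4 and Cdk6 directly. Cdkn2c, which encodes p18, had 3.39, 2.75 and 2.81 CPM in TKO-2i and 0.933, 1.01 and 0.936 CPM in TKO-serum (log2 fold change 1.63, SE 0.15, edgeR adjusted p = 2.3e-05). In the edgeR fit this was the largest rise among the 44 genes, from 36, 54 and 43 counts in TKO-serum. It was 0.68 to 1.69 over all alternatives, lowest with limma on log2(TPM + 1), and no library of one medium reached the range of the other. Cdkn2d, which encodes p19Ink4d, had 13.2, 11.5 and 12.1 CPM in TKO-2i and 9.26, 9.12 and 9.03 CPM in TKO-serum (log2 fold change 0.43, SE 0.08, edgeR adjusted p = 0.0012), again without overlap. Cdkn2b, which encodes p15, had 4.13, 2.73 and 3.40 CPM in TKO-2i and 3.32, 3.01 and 3.07 CPM in TKO-serum. Its groups overlapped and its log2 fold change was 0.13 (SE 0.16, edgeR adjusted p = 0.50). Of the transcripts of Cdkn2c, Cdkn2c-202 rose from 0.406, 0.590 and 0.486 TPM in TKO-serum to 2.00, 1.704 and 1.75 TPM in TKO-2i (log2 fold change 1.98, SE 0.25, edgeR adjusted p = 0.0027), a transcript chosen after its values were seen. Cdkn2c-201, also coding, had 0.321, 0.798 and 0.097 TPM in TKO-2i and 0.582, 0.452 and 0.506 TPM in TKO-serum. It was not called and its groups overlapped (log2 fold change -0.30, SE 0.65, edgeR adjusted p = 0.79).

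By TPM, the 6 inhibitors among the 44 genes were ordered Cdkn1a (104 ± 2.53), Cdkn2a (40.0 ± 2.85), Cdkn1b (30.3 ± 1.68), Cdkn2d (13.7 ± 0.820), Cdkn2b (3.79 ± 0.462) and Cdkn2c (2.22 ± 0.340) in TKO-2i (SD, n = 3 each). In TKO-serum the order of these genes was the same, from Cdkn1a at 44.9 ± 1.52 TPM to Cdkn2c at 1.01 ± 0.0307 TPM (SD, n = 3 each). Cdkn1c, which is not among them, had a mean of 1.71 TPM in TKO-2i and 21.2 TPM in TKO-serum.

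Cdkn2a, next to Cdkn2b on chromosome 4, had 28.1, 21.1 and 25.7 CPM in TKO-2i and 13.5, 11.9 and 13.5 CPM in TKO-serum. The groups did not overlap (log2 fold change 0.95, SE 0.11, edgeR adjusted p = 9.8e-05). This locus is known for encoding unrelated proteins, the Ink4 inhibitor p16Ink4a and the p53 activator p19Arf, from alternative exons 1 spliced to a shared exon 2. The transcript with exon 1 of Arf (Cdkn2a-202, exon 1 at chr4:89294334-89294653 of GRCm38, minus strand) had 41.6, 36.8 and 38.5 TPM in TKO-2i and 22.2, 21.1 and 24.1 TPM in TKO-serum (log2 fold change 0.88, SE 0.14, edgeR adjusted p = 0.0064). The p16Ink4a transcript (Cdkn2a-201, exon 1 at chr4:89281986-89282192) had 1.53, 0.778 and 0.783 TPM in TKO-2i and 0.443, 0.184 and 0.0841 TPM in TKO-serum (log2 fold change 2.17, SE 0.69, edgeR adjusted p = 0.070; with limma on log2(TPM + 1), 0.70, adjusted p = 0.03). Neither comparison overlapped between groups, and the p16Ink4a transcript made up 3.54%, 2.07% and 1.99% of both transcripts in TKO-2i and 1.95%, 0.861% and 0.348% in TKO-serum. Most of the signal of the gene was thus assigned to the Arf transcript in every library.

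The junctions that separate these transcripts are shown because they determine which protein is read. The last 30 bases of exon 1 are in lower case and the first 30 bases of the shared exon 2 (chr4:89276956-89276985, minus strand) in capitals, all coding, from GENCODE M21.
Cdkn2a-201: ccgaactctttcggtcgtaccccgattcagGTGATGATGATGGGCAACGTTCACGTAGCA
Cdkn2a-202: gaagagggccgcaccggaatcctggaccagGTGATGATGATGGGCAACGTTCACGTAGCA
In Cdkn2a-201, 126 coding bases precede exon 2 and leave 0 bases over, so exon 2 opens with a whole codon. In Cdkn2a-202, 190 coding bases precede it and leave 1 base over, so its first 2 bases complete a codon and the same letters are read in another frame.

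The pocket proteins, which bind and restrain E2F factors, were called in all 3 cases, where 62.5% of all tested genes were called, and in both directions. Rb1 had 3.99, 5.48 and 4.78 CPM in TKO-2i and 17.2, 21.2 and 17.1 CPM in TKO-serum, a 3.89-fold fall without overlap (log2 fold change -1.96, SE 0.13, edgeR adjusted p = 4.3e-06). Rbl1, which encodes p107, had 36.2, 38.9 and 36.5 CPM in TKO-2i and 17.0, 17.3 and 17.9 CPM in TKO-serum, a 2.14-fold rise without overlap (log2 fold change 1.10, SE 0.06, edgeR adjusted p = 8.7e-07). Rbl2, which encodes p130, had 12.2, 13.1 and 11.9 CPM in TKO-2i and 16.4, 17.0 and 16.7 CPM in TKO-serum, and fell without overlap (log2 fold change -0.43, SE 0.07, edgeR adjusted p = 0.0005). The falls of Rb1 and Ccnd2 and the rise of Rbl1 kept their calls under all 14 alternative settings tried.

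The order of the pocket proteins differed between media. Over all transcripts in TKO-2i, Rbl1 led with 16.4 ± 1.52 TPM, followed by Rbl2 with 5.05 ± 0.472 and Rb1 with 2.55 ± 0.557 TPM (SD, n = 3 each). In TKO-serum, Rbl1 and Rb1 had 9.07 ± 0.535 and 8.81 ± 1.27 TPM, which do not differ beyond their spread, and Rbl2 had 6.85 ± 0.343 TPM (SD, n = 3 each). Part of these levels lies in transcripts without coding sequence, among them the retained-intron transcript Rbl1-202 at 6.02 ± 0.775 TPM in TKO-2i and 4.64 ± 0.635 TPM in TKO-serum. Over coding transcripts, looked at after the values were seen, Rbl1 had 9.95 ± 0.514, Rbl2 3.14 ± 0.410 and Rb1 1.88 ± 0.270 TPM in TKO-2i. In TKO-serum the coding levels were 7.85 ± 0.920 TPM for Rb1, 4.49 ± 0.251 for Rbl2 and 3.99 ± 0.225 for Rbl1 (SD, n = 3 each).

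Genes that overlap Rb1 on the opposite strand fell with it, an observation made after the values were seen. Rcbtb2 shares 488 of the 6015 exon bases of Rb1 and had 4.13, 3.84 and 3.92 CPM in TKO-2i and 14.5, 15.5 and 14.3 CPM in TKO-serum (log2 fold change -1.90, SE 0.08, edgeR adjusted p = 2.8e-07). Lpar6, which encodes a lysophosphatidic acid receptor, shares 408 bases and had 0.625, 1.02 and 0.797 CPM in TKO-2i and 2.70, 2.99 and 2.37 CPM in TKO-serum (log2 fold change -1.72, SE 0.20, edgeR adjusted p = 9.2e-05). The libraries were strand-specific, but whether the counting used the strand is not given in the sources used here, so reads in the shared bases may not be separated. Exons of 16 of the 44 genes overlap another annotated gene. The overlapping gene passed the filter for 11 of them, 13 genes in all. Of these, 5 were called in the direction of the gene they overlap, 2 were called beside a gene that was not, and 5 were not called. By comparison, 62.5% of all tested genes were called, 31.9% higher and 30.6% lower. Pmel, chosen after its values were seen, fell (log2 fold change -0.73, SE 0.10, edgeR adjusted p = 0.00031) where Cdk2 rose, with 34 shared bases.

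**Figure D2:**
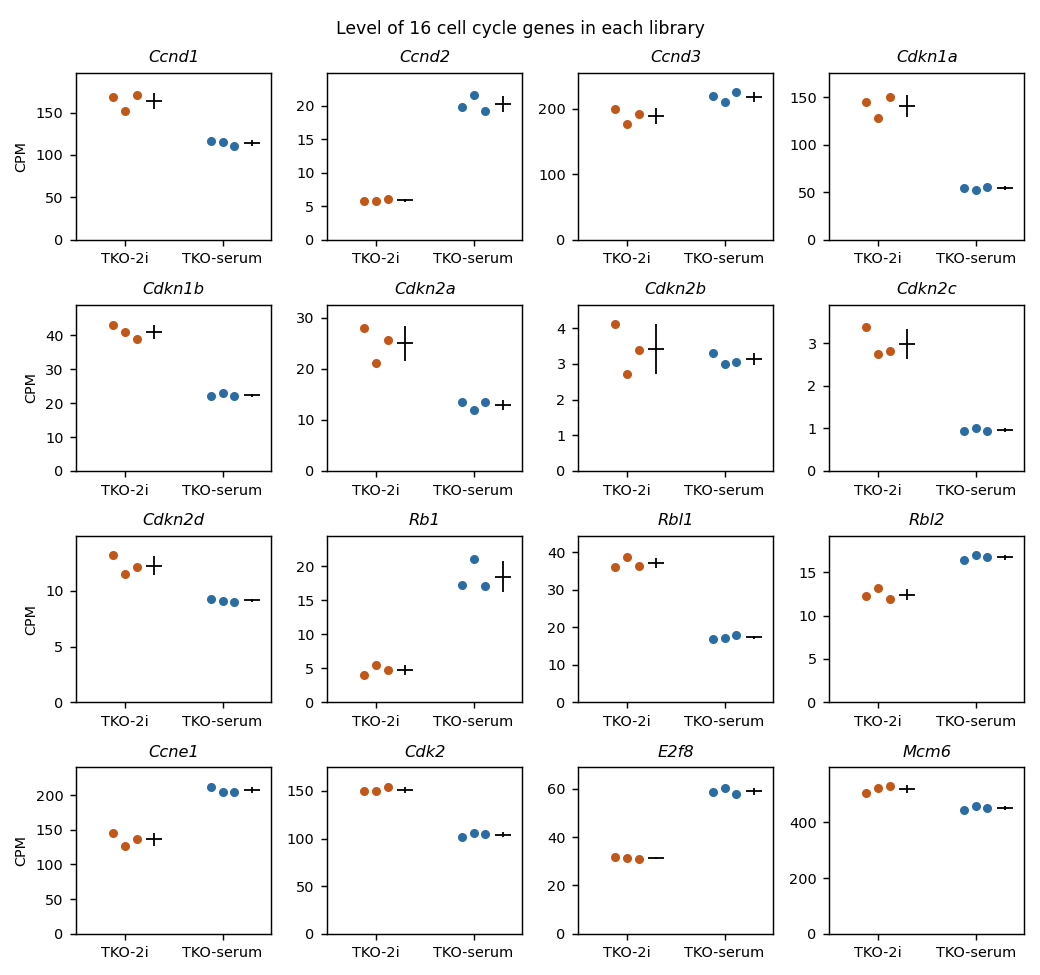
Level in CPM (y axis, from 0) of 16 of the genes in each of the 3 TKO-2i and 3 TKO-serum libraries (x axis). Coloured points are libraries and black bars the mean ± SD; Ccnd2 and Rb1 lie lower in every TKO-2i library, Cdkn1a, Cdkn2c and Rbl1 higher, and Cdkn2b overlaps.

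Of the 8 E2F factors, 3 were higher (E2f1, E2f5 and E2f6), 3 lower (E2f2, E2f7 and E2f8) and 2 were not called (E2f3 and E2f4), so that 75% were called against 62.5% of all tested genes. E2f6, a repressor that does not bind pocket proteins, had 32.7, 31.6 and 31.9 CPM in TKO-2i and 18.3, 18.0 and 17.9 CPM in TKO-serum, with no overlap (log2 fold change 0.83, SE 0.05, edgeR adjusted p = 2.5e-06). Of its transcripts, chosen after their values were seen, the coding E2f6-201 rose less, from 7.17 ± 0.285 to 9.86 ± 1.14 TPM (log2 fold change 0.50, SE 0.11, edgeR adjusted p = 0.024). E2f6-204, annotated for nonsense-mediated decay, rose from 3.29 ± 0.380 to 8.52 ± 0.0745 TPM (log2 fold change 1.42, SE 0.12, edgeR adjusted p = 0.00065; SD, n = 3 each). E2f8, an atypical repressor, had 31.6, 31.4 and 31.0 CPM in TKO-2i and 58.6, 60.5 and 57.6 CPM in TKO-serum, with no overlap (log2 fold change -0.91, SE 0.05, edgeR adjusted p = 8.4e-07). E2f7, the other atypical repressor, fell alongside it (log2 fold change -0.80, SE 0.06, edgeR adjusted p = 1e-05).

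Among the activators, E2f1 was higher (log2 fold change 0.50, SE 0.06, edgeR adjusted p = 0.00017) and E2f2 lower (log2 fold change -0.38, SE 0.06, edgeR adjusted p = 0.00075). The size of the fall of E2f2 depended on the setting, with log2 fold changes of -0.67 to -0.37 over all alternatives. E2f3 had a log2 fold change of 0.15 (adjusted p = 0.067), which reached 0.19 (adjusted p = 0.034) without TKO-2i replicate 1, with adjusted p-values of 0.015 to 0.59 over all alternatives. E2f5, which partners mainly with p130, rose by 0.28 on the log2 scale (SE 0.06, edgeR adjusted p = 0.0031). E2f4, the most abundant E2F by TPM, had 90.2 ± 2.96 TPM in TKO-2i and 89.2 ± 3.08 TPM in TKO-serum (SD, n = 3 each), with a log2 fold change of 0.12 (adjusted p = 0.14), or 0.18 (adjusted p = 0.008) without TKO-2i replicate 2, and adjusted p-values of 0.008 to 0.83 over all alternatives.

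Of the 8 cyclins, kinases and phosphatase that act from the start of S phase to mitosis, 3 were called (37.5%, against 62.5% of all tested genes). Ccne1, a cyclin E and activator of Cdk2, had 145, 127 and 137 CPM in TKO-2i and 212, 204 and 204 CPM in TKO-serum, and was 1.52-fold lower in TKO-2i with no overlap (log2 fold change -0.60, SE 0.06, edgeR adjusted p = 4.8e-05). Ccne2, the other cyclin E, had a log2 fold change of 0.04 (SE 0.09, edgeR adjusted p = 0.72). Cdk2 had 149.5, 149.5 and 154.5 CPM in TKO-2i and 101.5, 106 and 105 CPM in TKO-serum, so that this kinase rose while Ccne1 fell (log2 fold change 0.54, SE 0.05, edgeR adjusted p = 2.5e-05). In TPM, Ccne1 had 94.0 ± 3.63 in TKO-2i and 152 ± 4.29 in TKO-serum, and Cdk2 had 92.8 ± 5.32 and 69.7 ± 3.80 (SD, n = 3 each).

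The mitotic cyclins and Cdk1 were not called. Ccna2, Ccnb1, Ccnb2 and Cdk1 had log2 fold changes of 0.14, -0.10, -0.01 and 0.18, with edgeR adjusted p-values of 0.053, 0.19, 0.96 and 0.096. Without TKO-2i replicate 2, Ccna2 (0.17, adjusted p = 0.008) and Cdk1 (0.26, adjusted p = 0.0042) were called higher. Ccnb1 was called lower with limma on log2(TPM + 1) (-0.19, adjusted p = 0.0043) and with a replicate block (-0.10, adjusted p = 0.04). Over all alternatives, adjusted p-values were 0.008 to 0.3 for Ccna2, 0.0042 to 0.57 for Cdk1 and 0.0043 to 0.48 for Ccnb1. Cdc25a, the phosphatase that activates Cdk2, had a log2 fold change of 0.14 (SE 0.05, edgeR adjusted p = 0.044). Its call did not hold when any library other than TKO-2i replicate 2 was left out, the adjusted p then being 0.16, 0.17, 0.13, 0.062 and 0.14 without TKO-2i replicates 1 and 3 and TKO-serum replicates 1, 2 and 3. It lay between 0.015 and 0.88 over all alternatives, and mean TPM was 43.0 in TKO-2i and 43.5 in TKO-serum. In this group 2 genes were called higher, or 4 without TKO-2i replicate 2 and 1 with any other library left out.

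The rise of Cdk2 lay in one of its coding transcripts. Cdk2 was examined at this level after its values were seen. Cdk2-202 had 36.7, 39.3 and 36.7 TPM in TKO-2i and 14.1, 12.2 and 15.2 TPM in TKO-serum, without overlap (log2 fold change 1.48, SE 0.11, edgeR adjusted p = 0.00042 over all 48564 transcripts tested). Cdk2-201 had 43.8, 47.8 and 42.9 TPM in TKO-2i and 44.4, 54.7 and 47.9 TPM in TKO-serum, with overlap (log2 fold change -0.09, SE 0.07, edgeR adjusted p = 0.45). Cdk2-202 therefore made up 45.6%, 45.1% and 46.1% of both in TKO-2i and 24.1%, 18.2% and 24.1% in TKO-serum. These shares do not overlap, and the exact two-sided permutation test of 3 libraries against 3 cannot give a p-value below 0.1. Limma on TPM gave 1.38 for Cdk2-202 (adjusted p = 0.00019) and -0.12 for Cdk2-201 (adjusted p = 0.36). The division of reads between transcripts is an estimate, and its uncertainty is not in the files.

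Cdk2-202 has 1038 coding bases and Cdk2-201 has 894. They differ in the coding sequence by exon 6 of Cdk2-202 (chr10:128699976-128700119 of GRCm38, minus strand, 144 bases), an insertion within the kinase gene that is printed because it carries the difference between the transcripts. Capitals mark the exon and lower case 15 coding bases of the exons on either side, from GENCODE M21.
Cdk2-202: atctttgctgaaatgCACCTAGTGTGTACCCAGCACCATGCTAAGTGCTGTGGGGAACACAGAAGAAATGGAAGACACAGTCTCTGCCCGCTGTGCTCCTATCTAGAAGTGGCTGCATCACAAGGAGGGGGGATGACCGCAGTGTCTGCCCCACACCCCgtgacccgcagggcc
The exon follows 588 coding bases, which leave 0 bases over, and adds 48 codons, so the frame downstream is kept.

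**Figure D3:**
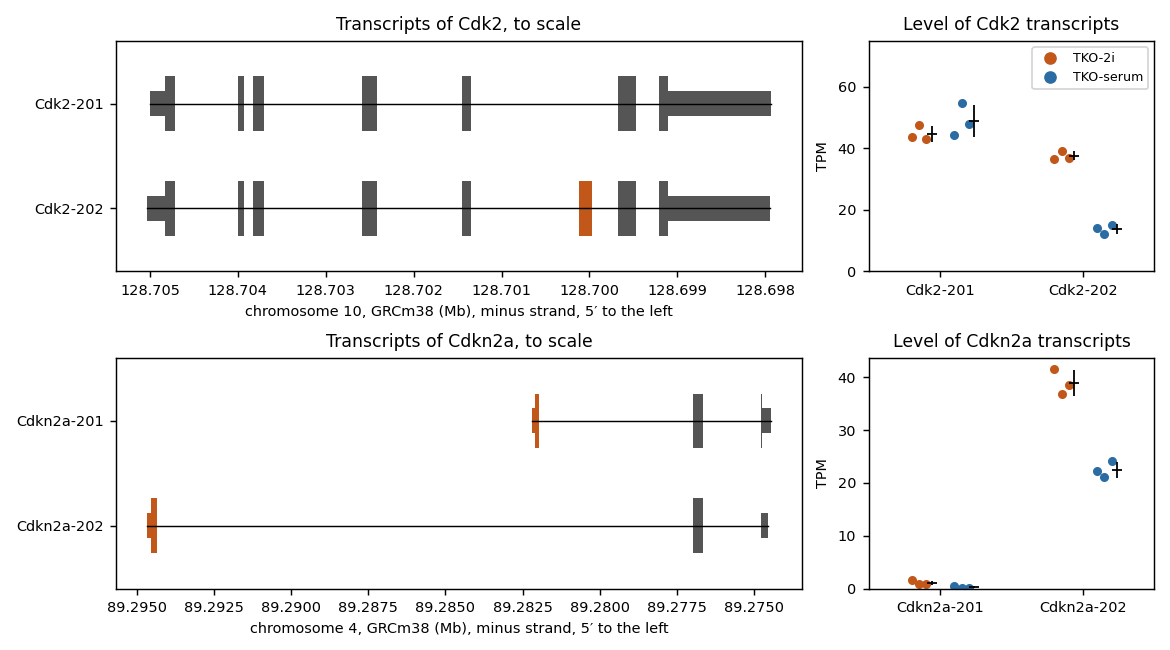
Exons of the coding transcripts of Cdk2 and Cdkn2a along the chromosome (left, GRCm38, to scale, tall boxes coding, exons specific to a transcript in orange) and the level of each transcript in TPM in each library (right, y axis from 0, bars mean ± SD, n = 3). Cdk2-202 lies between 36.7 and 39.3 TPM in TKO-2i and between 12.2 and 15.2 TPM in TKO-serum, whereas the libraries overlap for Cdk2-201.

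The 11 genes of replication licensing and Pcna include factors that load the MCM helicase in G1, subunits of the helicase, the loading inhibitor Gmnn and Mcm10, which acts later. Of these, 6 were higher (Cdc6, Gmnn, Mcm2, Mcm6, Mcm10 and Pcna) and none was lower, with log2 fold changes from -0.02 to 0.44 and a median of 0.18 over the 11. By comparison, 31.9% of all tested genes were higher and 30.6% lower. Without TKO-2i replicate 2, 10 of the 11 were called higher, Cdt1 (0.21, adjusted p = 0.006), Mcm3 (0.11, adjusted p = 0.041), Mcm5 (0.13, adjusted p = 0.02) and Mcm7 (0.19, adjusted p = 0.0039) being added, where 33.8% of all tested genes were higher. With any other library left out, 4 to 6 of the 11 were higher, fewest without TKO-2i replicate 3. With limma on log2(TPM + 1), 3 were higher (27.3%, against 23.2% of all tested genes).

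Mcm2, a subunit of the helicase, had 755, 678 and 713 CPM in TKO-2i and 537, 515 and 528 CPM in TKO-serum. The groups did not overlap (log2 fold change 0.44, SE 0.05, edgeR adjusted p = 0.00013). Mcm2 lies on chromosome 6, and its log2 fold change was 0.03 above the chromosome median. Cdc6, which recruits the helicase with Cdt1, lies on chromosome 11, whose 1399 tested genes had a median of 0.26; its log2 fold change of 0.20 (edgeR adjusted p = 0.01) was -0.06 relative to that median. Medians of the other autosomes and X lay between -0.15 and 0.05. The part of the chromosomes in these results was not tested. The call on Cdc6 was lost without TKO-2i replicate 3 (adjusted p = 0.062) and with limma on log2(TPM + 1) (0.08, adjusted p = 0.32), with adjusted p-values of 0.0029 to 0.33 over all alternatives.

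The 6 subunits of the helicase were not alike. Mcm6 was higher (504, 523 and 531 CPM in TKO-2i and 443, 459.6 and 449.8 CPM in TKO-serum; log2 fold change 0.20, SE 0.05, edgeR adjusted p = 0.0045), without overlap in CPM. In TPM its groups overlapped, and the call was lost with limma on log2(TPM + 1) (0.13, adjusted p = 0.17, the highest over all alternatives, the lowest being 0.00026). Mcm3, Mcm4, Mcm5 and Mcm7 had log2 fold changes of 0.06, -0.02, 0.06 and 0.12, with adjusted p-values of 0.34, 0.75, 0.42 and 0.15. In TPM the subunits lay between 135 (Mcm4) and 342 (Mcm5) in TKO-2i and between 146 (Mcm4) and 352.5 (Mcm5) in TKO-serum. Mcm10, which acts when the helicase is activated, rose by 0.31 on the log2 scale (SE 0.05, edgeR adjusted p = 0.00058), and Gmnn, the inhibitor of Cdt1, by 0.32 (SE 0.08, edgeR adjusted p = 0.0065).

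Cdt1 itself had a log2 fold change of 0.14 (adjusted p = 0.15), with overlap between the groups. Pcna, the sliding clamp of DNA polymerases, had a log2 fold change of 0.18 (SE 0.07, edgeR adjusted p = 0.049), with overlapping groups. Its adjusted p was 0.18, 0.19, 0.16 and 0.15 without TKO-2i replicates 1 and 3 and TKO-serum replicates 2 and 3, and 0.0033 to 0.19 over all alternatives. Reads may also be shared with the copy Pcna-ps2, to which 2760, 3301 and 3041 counts were assigned in TKO-2i and 2687, 3816 and 2980 in TKO-serum, so the level of Pcna is uncertain. Of the coding transcripts of Mcm7, Mcm7-204 was lower (log2 fold change -0.91, SE 0.22, edgeR adjusted p = 0.028) and Mcm7-209 higher (log2 fold change 0.41, SE 0.09, adjusted p = 0.019), the latter call being lost with limma on TPM (0.36, adjusted p = 0.092). Both are annotated as incomplete at the 3′ end, and the complete Mcm7-201, at 161 to 168 TPM in TKO-2i and 160.5 to 163.5 TPM in TKO-serum, was not called (log2 fold change 0.08, adjusted p = 0.64).

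Of the 3 mitotic genes, 2 were called lower, where 30.6% of all tested genes were lower. Plk1, a kinase of spindle assembly and cytokinesis, had 182, 155 and 186 CPM in TKO-2i and 208, 198 and 206 CPM in TKO-serum, without overlap (log2 fold change -0.23, SE 0.08, edgeR adjusted p = 0.027). Aurka, the kinase of the spindle poles, fell by 0.20 on the log2 scale (SE 0.06, edgeR adjusted p = 0.015). Leaving out TKO-serum replicate 1 ended both calls (adjusted p = 0.091 for Plk1 and 0.067 for Aurka), and leaving out TKO-serum replicate 3 ended that of Plk1 (adjusted p = 0.085), with adjusted p-values of 0.00047 to 0.091 for Plk1 and 0.0013 to 0.067 for Aurka over all alternatives. The log2 fold changes stayed below 0, at -0.35 to -0.14 for Plk1 and -0.29 to -0.15 for Aurka over all alternatives. Mki67, the gene of the Ki-67 antigen, had 259, 352 and 291 CPM in TKO-2i and 310, 334 and 322 CPM in TKO-serum. TKO-2i replicate 2 was the highest of all 6 libraries, and the log2 fold change was -0.10 (adjusted p = 0.42), or -0.22 (adjusted p = 0.0056) without it, with adjusted p-values of 0.0056 to 0.86 over all alternatives.

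Across the 44 genes, 234 transcripts were annotated and 157 tested, of which 22 were higher and 14 lower (22.9% called, against 23.5% of all 48564 transcripts tested, of which 11.1% were higher and 12.3% lower). At least 2 coding transcripts with a mean of 1 TPM were found for 21 genes, and in 3 of these, Ccnd3, Cdk6 and Mcm7, coding transcripts were called in opposite directions (14.3%, against 134 of 5036, or 2.66%, over all genes). With limma on log2(TPM + 1) this held for 1 gene, Ccnd3 (4.76%, against 3.53%). For Ccnd3, the main transcript Ccnd3-205 had 128, 137 and 126 TPM in TKO-2i and 161, 172 and 174 TPM in TKO-serum (log2 fold change -0.29, SE 0.08, edgeR adjusted p = 0.045). The shorter Ccnd3-208, with 288 coding bases in place of 876, had 4.88, 4.17 and 5.86 TPM in TKO-2i and 1.78, 2.12 and 2.19 TPM in TKO-serum (log2 fold change 1.42, SE 0.27, edgeR adjusted p = 0.012). Neither comparison overlapped between groups.

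Since E2F factors regulate many of these genes, the promoters were searched for their binding letters. RefSeq promoters of GRCm38.p6 were found for 35 of the 44 genes, with 42 promoters in all, and were missing for Ccna2, Ccnd1, Ccnd2, Ccne2, E2f4, E2f5, Gmnn, Mcm4 and Rb1. TTTCGCGC, TTTGGCGC, TTTCCCGC or TTTGCCGC on either strand lay in the 250 bases upstream of the start in 11 of the 42 (26.2%), against 1.86% of all 32851 promoters. The genes were Cdc25a, Cdc6, Cdk1, Cdk2, Cdkn2a, E2f3, E2f7, Mcm5, Mcm6, Mcm7 and Rbl1, of which 6 were higher, 1 was lower and 4 were not called (63.6% called), with a median log2 fold change of 0.18. In the 24 genes without these letters in the bases searched, 10 were higher, 7 lower and 7 not called (70.8% called), with a median of 0.11. Both shares lie near the 62.5% of all tested genes; 54.5% and 41.7% were higher, against 31.9%. These counts depended on the setting. Without TKO-2i replicate 2, 9 of the 11 and 13 of the 24 were higher (81.8% and 54.2%), against 33.8% of all tested genes. With limma on log2(TPM + 1), 3 and 8 were higher (27.3% and 33.3%), against 23.2%. The letters TTTGAA or TTCGAA, known from cell cycle homology regions of mitotic genes, lay in 10 of the 42 (23.8%), against 17.1% of all promoters. Of the 10 genes with these letters, 1 was higher, 3 were lower and 6 were not called. In the 25 without them, 15 were higher, 5 lower and 5 not called, and the difference was not tested. These counts also depended on TKO-2i replicate 2. Without it, Cdk1 and Mcm7 were added to the higher genes with the letters and Mki67 to the lower. Cdk4, Cdt1, Mcm3 and Mcm5 were added to the higher genes without them. A match is not evidence of binding. The starts used did not always match GENCODE M21. For some genes, among them E2f1 and Cdc6, the 250 bases lay inside the annotated gene. E2f1, on the minus strand, was searched at chr2:154569427-154569676, while its annotated 5′ end is at 154569892. Bases upstream of E2f1 and Cdc6 were not searched, so their place with or without letters is uncertain.

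Upstream stretches of 5 of these promoters are printed, to show where the letters lie in genes that rose (Rbl1, Mcm6 and Cdkn2a), fell (E2f7) or were not called (Mcm5). Sequences are from RefSeq (GRCm38.p6), 5′ to 3′ on the strand of the gene, with matches to the E2F letters in capitals, and bases annotated as exon in GENCODE M21 left out.
Rbl1 (chr2:157204535-157204784, minus strand): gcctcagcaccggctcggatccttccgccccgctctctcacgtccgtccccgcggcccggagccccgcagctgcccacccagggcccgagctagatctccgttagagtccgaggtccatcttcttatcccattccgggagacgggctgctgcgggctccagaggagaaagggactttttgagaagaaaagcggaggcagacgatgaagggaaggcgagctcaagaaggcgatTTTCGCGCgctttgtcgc
Mcm6 (chr1:128359706-128359955, minus strand): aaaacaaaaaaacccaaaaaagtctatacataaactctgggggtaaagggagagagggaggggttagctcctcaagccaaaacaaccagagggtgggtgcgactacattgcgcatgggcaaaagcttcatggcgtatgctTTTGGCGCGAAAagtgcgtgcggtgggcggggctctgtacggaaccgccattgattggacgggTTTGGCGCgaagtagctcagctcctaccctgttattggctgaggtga
Cdkn2a, Arf promoter (chr4:89294654-89294869, minus strand): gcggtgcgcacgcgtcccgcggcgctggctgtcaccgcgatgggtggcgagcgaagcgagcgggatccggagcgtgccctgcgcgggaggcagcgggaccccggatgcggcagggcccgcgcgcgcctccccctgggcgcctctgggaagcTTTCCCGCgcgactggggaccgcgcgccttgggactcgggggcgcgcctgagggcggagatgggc
E2f7 (chr10:110745189-110745438, plus strand): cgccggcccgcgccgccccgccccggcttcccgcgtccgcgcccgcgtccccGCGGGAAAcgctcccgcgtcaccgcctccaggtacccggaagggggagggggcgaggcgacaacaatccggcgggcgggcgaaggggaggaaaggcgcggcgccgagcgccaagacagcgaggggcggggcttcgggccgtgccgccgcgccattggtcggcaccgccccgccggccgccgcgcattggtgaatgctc
Mcm5 (chr8:75109259-75109508, plus strand): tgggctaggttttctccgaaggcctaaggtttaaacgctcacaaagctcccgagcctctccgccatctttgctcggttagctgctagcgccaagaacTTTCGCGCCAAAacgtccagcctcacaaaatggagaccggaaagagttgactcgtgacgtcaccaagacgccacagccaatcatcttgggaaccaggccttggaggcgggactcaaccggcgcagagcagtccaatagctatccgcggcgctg
The match of Rbl1 begins 18 bases upstream of the start, that of the Arf promoter 99 and that of E2f7 198 bases upstream. Mcm6 has 3 matches, at 110, 106 and 47 bases, and Mcm5 has 2, at 153 and 149 bases; the pairs that begin 4 bases apart overlap and share letters. The promoter of the p16Ink4a transcript holds no match in this window.

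A wider set of 116 cell cycle genes was examined in the same fit, of which 114 were tested. In TKO-2i 43 were higher and 25 lower (59.6% called, against 62.5% of all tested genes), and the median log2 fold change was 0.06. At least 2-fold changes were called for 5 (4.4%, against 23.3% of all tested genes). The excess of higher calls did not hold with limma on log2(TPM + 1), for which counts are given by list below. Of 26 genes of the replication fork and nucleotide supply, 15 were higher, where 31.9% of all tested genes were higher, and 1 was lower, with a median of 0.24, led by Rpa3 (log2 fold change 1.03), Tk1 (0.97) and Pole2 (0.69). Rpa3 lies on chromosome 6 and Tk1 on chromosome 11, with medians of 0.41 and 0.26. Origin recognition and helicase activation followed, with 8 of 16 higher and 2 lower, led by Mcm9 (0.57), Gins2 (0.48) and Mcm8 (0.45). With limma on log2(TPM + 1), 11 of the 26 and 4 of the 16 were higher (42.3% and 25%, against 23.2% of all tested genes), and 2 and 3 were lower. The 15 wider genes on chromosomes 6 and 11 had 9 higher and 1 lower, and the 99 tested on other chromosomes had 34 higher and 24 lower.

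The following lists compare with 31.9% higher, 30.6% lower and 62.5% called among all tested genes. With limma on log2(TPM + 1), 55.3% of all tested genes were called and 23.2% were higher. Higher genes then made up 41.9% of all called genes, against 51.1% in the edgeR fit. Without TKO-2i replicate 2, 67.2% of all tested genes were called and 33.8% were higher. Among 25 genes of G2/M and the spindle checkpoint, 6 were higher and 6 lower (48% called), or 4 and 8 with limma on log2(TPM + 1). The largest changes were in Pkmyt1 (0.73), Foxm1 (0.59) and Mad2l1 (0.53), the last 2 on chromosome 6. The partners of E2F and of the DREAM complex had 1 higher and 2 lower of 7 (42.9% called), the falls being Tfdp2 (-0.81), a dimerisation partner of E2F, and Lin54 (-0.25). The number higher was 0 without replicate 1 or 3 of either medium and 2 without TKO-2i replicate 2. With limma on log2(TPM + 1), 0 were higher and 2 lower. Of 18 ubiquitin ligase genes, 7 were higher and 3 lower (55.6% called), or 8 and 6 without TKO-2i replicate 2. The balance turned with limma on log2(TPM + 1), with 5 higher and 7 lower. It also turned with at least 10 counts in every sample, with 6 higher and 7 lower, where 32.7% of all tested genes were higher. Cul4b (-0.69), Dtl (0.55) and Skp2 (-0.47), whose product targets p27 for degradation, changed most. Other cyclins, CDKs and inhibitors had 4 higher and 5 lower of 13 tested (69.2% called), or 3 and 6 with limma on log2(TPM + 1).

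The largest change in the wider set was in a CDK inhibitor. Cdkn1c, which encodes p57 and is imprinted, had 2.14, 1.64 and 1.88 CPM in TKO-2i and 19.7, 19.9 and 20.3 CPM in TKO-serum, and so fell where Cdkn1a and Cdkn1b, of the same family, rose (log2 fold change -3.40, SE 0.10, edgeR adjusted p = 6.3e-08). Ccng2 fell by 1.93 and Ccnc rose by 0.59 on the log2 scale. Of 9 tested genes upstream of the cycle, 2 were higher and 6 lower (88.9% called, against 62.5% of all tested genes, of which 30.6% were lower). With limma on log2(TPM + 1), 2 were higher and 7 lower, where 55.3% of all tested genes were called. Myc had 22.9, 20.4 and 22.6 CPM in TKO-2i and 49.9, 49.2 and 46.2 CPM in TKO-serum, without overlap (log2 fold change -1.14, SE 0.06, edgeR adjusted p = 1.3e-06), and Mycn fell similarly (-1.12, SE 0.07, edgeR adjusted p = 3.8e-06). Bmi1, a repressor of Cdkn2a, rose by 0.98 on the log2 scale (SE 0.09, edgeR adjusted p = 2.3e-05). Ccnb3 and Gfi1 did not pass the filter.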

How the data were processed

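Per the file headers, the authors deposited an estimated count of reads and a TPM value for each mouse transcript in each of 6 libraries, in the columns that salmon writes; the quantifier, its version and its index are not given for these files. RNA methods in the paper name Tophat and RPKM, which these columns do not hold, and a later section cites an earlier article, not used here, for the TKO data. The submitters' processing notes name mm10. The deposited TPM values are scaled for transcript length. Estimated counts are not normalized, and between 85.1% and 85.8% of those above 0 are not whole, since reads shared by transcripts are divided.

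Transcripts were matched to GENCODE M21 (136100, or 99.86%), and between 0.0473% and 0.0643% of a library's counts were on unmatched transcripts and left out. Gene sums of the counts were rounded, passed through filterByExpr and scaled by TMM (factors 0.9705 to 1.0267) in edgeR 4.0.16 (R 4.3.3). The test between media was glmQLFTest after glmQLFit, with condition as the only factor and Benjamini-Hochberg adjustment over the 18177 genes tested. A change is called at an adjusted p-value under 0.05. SE is the absolute log2 fold change divided by the square root of F. The biological coefficient of variation was 0.0902. Transcripts were tested likewise. Marker lists were ranked by mean TPM in each medium. Overlap between groups was judged on CPM for genes and TPM for transcripts. Promoter and exon sequences came from RefSeq and GENCODE. Python 3 scripts used pandas and matplotlib.

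The 44 genes and all lists were chosen with earlier results of these data known. Values in every library are given for genes past 2-fold, the largest rise and fall in each role, all D cyclins and CDK inhibitors, and further genes chosen after their values were seen; of each wider list, at most 3 genes with the largest change and a mean of at least 1 CPM are named. Transcripts are named where coding transcripts of a gene were called in opposite directions, and for Cdkn2a; those of Cdk2, Cdkn2c and E2f6 were chosen after their values were seen.

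Alternatives were DESeq2 1.42.0, its size factors in edgeR, no filter, at least 10 counts in every sample, length-scaled TPM counts, limma 3.58.1 on log2(TPM + 1) and log2(TPM + 0.1), a replicate block, each library left out, and log2 fold changes minus the median of their chromosome. Tested on simulated counts for this comparison (18177 genes), edgeR recovered 80 of 100 genes changed by 1 and 38 of 100 changed by 0.5 on the log2 scale, with 15 false calls. No other genes were changed in the simulation, whereas 62.5% of tested genes were called in the real data. The simulated rates of recovery and false calls therefore need not hold there. Depth lay between 38274042 and 51932739 counts per library. Intervals were not computed, and the floor of 3 counts covers counting error only.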

Additional observations from a re-analysis of the deposited data

How the results depend on the processing

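Of the 29 called genes, 21 kept their direction and their call under all 14 alternatives, and of the 15 genes not called, 4 were not called under any; the other 19 had log2 fold changes between -0.23 and 0.31. Counts of called genes among the 44 lay between 26 and 29 with other tools, scalings, filters and limma, of which 14 to 18 were higher, and between 24 and 38 when a library was left out (15 to 27 higher and 7 to 11 lower). Past 2-fold, 4 to 6 were called. Over all genes, 10152 to 12568 were called and 4266 to 4642 past 2-fold with a library left out; the count past 2-fold was 2729 with at least 10 counts in every sample, where fewer genes are tested, and 1746 with limma on log2(TPM + 1), where adding 1 shrinks changes at low levels. In the wider set, 59 to 81 were called with a library left out. Transcripts of the 44 genes called numbered 36, or 35 with limma.

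Direction reversed for Cdk6 (-0.25 with length-scaled TPM counts, -0.32 with limma on log2(TPM + 1) and -0.34 on log2(TPM + 0.1)) and for Cdc25a (-0.02 on both limma scales, not called); the cause was not tested. Among genes not called, 7 (Ccnb2, Ccne2, Cdk4, Cdkn2b, Cdt1, Mcm3 and Mcm5) had values on both sides of 0 across the 14 alternatives, between -0.1 (Ccnb2) and 0.28 (Cdkn2b). These 14 do not include the subtraction of the chromosome median. Relative to the chromosome median, Cdc6 was at -0.06, and Ccnb1, which was not called, moved from -0.10 to 0.01. Calls on Pcna and Cdc25a were also lost with DESeq2, with its size factors in edgeR, without a filter, with at least 10 counts, with length-scaled TPM counts and on both limma scales, that on Cdk6 with at least 10 counts (adjusted p = 0.062), and those on Cdc6 and Mcm6 on both limma scales.

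The libraries share only a replicate number. The correlation across genes of same-numbered deviations was 0.38, 0.498 and 0.0638 for replicates 1, 2 and 3, and that of libraries with unlike numbers -0.454 to 0.197. Each library correlated best with its own number except TKO-2i replicate 3, which did so with TKO-serum replicate 1 (0.197); this is a hint from the data, not the design. With a replicate block, 36 of the 44 genes were called (25 higher and 11 lower, 5 past 2-fold), 86 in the wider set, and 12539 over all genes (4276 past 2-fold). At this depth, low genes such as Cdkn2c, Cdkn2b and the p16Ink4a transcript rest on few reads, and the log2 fold change of Cdkn2c lay between 0.68 and 1.69.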
